A study of Mus musculus with 6 samples.

Results

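The genes described here are 33 markers and signals of liver sinusoidal endothelial cells and hepatic stellate cells, picked by name from a deposited table of 23415 genes. All 33 were found, 22 of them endothelial and 11 of stellate cells, and the authors tested 32, all but Wnt9b. The table compares the livers of 3 alkaline sphingomyelinase (Enpp7) knockout mice with those of 3 wildtype mice, all of strain C57BL/6. The sample names give the genotype by a letter only, K or W, and the labels give no age, sex, treatment or allele. The tissue label is liver, whereas the design text names intestine.

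Sinusoidal endothelial cells line the capillaries of the liver. They are perforated, take up waste molecules from blood, and send signals such as Wnt2, Wnt9b, R-spondin 3 and Bmp2 to the hepatocytes beside them. Stellate cells lie between that endothelium and the hepatocytes, store vitamin A as retinyl esters, and can turn into matrix-producing myofibroblasts after injury. Both cell types are a minority in liver, so their transcripts are diluted by those of hepatocytes.

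The authors deposited 1 value per group and none per mouse, so no spread between mice can be given. No unit is named, and the values were read as FPKM (reads scaled for transcript length and sequencing depth). On that reading levels of different genes can be compared. Pairs of values joined by "against" give the knockout group before the wildtype group. Each log2 ratio sets knockout over wildtype and is followed by the standard error (SE) implied by the authors' test statistic. The words rose and fell are kept for genes with a q-value under 0.05 in the authors' deposited table. Enpp7 itself was at 0.141 against 0.0541 FPKM and was not tested, so it does not check the genotype labels. Total reads per library are unknown. In bulk tissue, fewer cells of a type and less RNA per cell cannot be told apart.

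Almost all of the 33 genes were listed lower in the knockout livers, by small amounts, and none passed the test. Of the 32 tested, 29 ratios were below 0 and 3 above, with a median of -0.22, while 50.1% of all tested genes had a ratio below 0 and their median was -0.0012. No member fell or rose in the authors' deposited table, against 1.08% of all tested genes called in either direction, 0.504% lower and 0.573% higher. Without adjustment, p was under 0.05 for 5 members, each of them lower (Reln, Ehd3, Lrat, Ecm1 and Bmp2). That is 15.6% of those tested, against 5.29% of all tested genes in either direction and 2.47% on the lower side. The set was put together with earlier results of these data known, so these shares describe it and carry no test.

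The starts of 4 of these genes are shown. Reln, Lrat and Ecm1 were taken as the 3 stellate cell genes with the smallest p, and Clec4g as the endothelial gene with the highest level and the highest ratio. The 250 bases before the start site are from RefSeq (build GRCm38.p6), which holds an entry for 24 of the 33 genes. Capitals mark a TATA box (TATAAA) or the core of an ETS factor site (AGGAAG), on either strand.
Reln: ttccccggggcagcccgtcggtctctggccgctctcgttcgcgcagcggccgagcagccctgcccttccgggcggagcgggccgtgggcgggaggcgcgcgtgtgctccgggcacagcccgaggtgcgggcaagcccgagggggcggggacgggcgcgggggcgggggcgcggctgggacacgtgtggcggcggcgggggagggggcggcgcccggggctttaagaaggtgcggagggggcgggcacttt
Lrat: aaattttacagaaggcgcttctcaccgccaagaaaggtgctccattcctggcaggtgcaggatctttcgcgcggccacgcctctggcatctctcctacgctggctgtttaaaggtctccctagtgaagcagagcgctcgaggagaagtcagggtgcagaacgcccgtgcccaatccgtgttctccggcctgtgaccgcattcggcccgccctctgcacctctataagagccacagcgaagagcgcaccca
Ecm1: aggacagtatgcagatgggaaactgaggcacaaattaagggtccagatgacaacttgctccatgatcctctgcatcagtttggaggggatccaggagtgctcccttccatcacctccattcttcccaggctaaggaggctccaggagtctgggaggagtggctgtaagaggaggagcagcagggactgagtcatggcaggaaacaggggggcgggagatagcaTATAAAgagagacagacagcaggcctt
Clec4g: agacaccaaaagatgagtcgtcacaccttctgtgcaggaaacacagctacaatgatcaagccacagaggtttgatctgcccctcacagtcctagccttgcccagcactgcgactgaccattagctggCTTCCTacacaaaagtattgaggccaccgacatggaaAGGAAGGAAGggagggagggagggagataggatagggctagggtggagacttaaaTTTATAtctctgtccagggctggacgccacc

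All 4 genes are on the minus strand, and the windows lie at chr5:22344706-22344955 for Reln, chr3:82903975-82904224 for Lrat, chr3:95739570-95739819 for Ecm1 and chr8:3720652-3720901 for Clec4g. The Reln window is 80.0% G and C with 37 CpG dinucleotides, and that of Lrat 59.2% with 18. Those of Ecm1 and Clec4g hold 1 and 4 CpG dinucleotides, and each has a match to the TATA letters, beginning 27 and 31 bases before the start, that of Clec4g on the other strand. Clec4g also holds 3 matches to the ETS letters, of which 2 overlap by 2 bases.

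Counting the first listed window of each gene, 8 of the 24 members with an entry hold AGGAAG, 3 hold TATAAA and 2 hold the GATA factor letters AGATAA. Of all 27025 RefSeq genes counted in the same way, 29.2%, 13.0% and 10.3% do. Hgf alone among the members has a further window, which also holds AGGAAG on one of its strands. The 2 members with AGATAA are Hand2 and Rgs5. A match is a string of letters and not a measured binding site.

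The stellate cell genes lay mostly below their wildtype values, and none passed the test. Of the 11, all tested, 10 ratios were below 0, and the median was -0.36 (-0.42 for the angiocrine ligands). An unadjusted p was under 0.05 for 3 of the 11, each lower, against 2.47% of all tested genes on the lower side. The summed level of the 11 was 64.6 against 87.6 FPKM, or 73.7% of wildtype, next to 75.1% for the angiocrine ligands. Ecm1 makes up the largest share of that sum, and without it the sum was 25.5 against 31.9 FPKM, or 80.0%, above the share of the angiocrine ligands.

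Reln encodes reelin, a secreted glycoprotein that in liver marks stellate cells. It was at 2.13 against 3.43 FPKM, 61.9% of wildtype (log2 ratio -0.69 ± 0.24 SE, with p = 0.00384 and q = 0.201 by the authors' deposited table). This was the smallest p of the 32 genes and ranked 218 among the 11515 tested genes. The 95% interval of the ratio runs from -1.16 to -0.22.

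Lrat, the enzyme that makes the retinyl esters stored by stellate cells, was at 2.28 against 3.56 FPKM (-0.64 ± 0.28, with q = 0.631 by the authors' deposited table). Ecm1, a secreted matrix glycoprotein and the most abundant gene of this group, was at 39.1 against 55.7 FPKM (-0.51 ± 0.23, q = 0.708 by that table). Hand2, a transcription factor of stellate cells, was at 2.35 against 3.41 FPKM (-0.54 ± 0.32). Reln, Lrat, Ecm1 and Hand2 thus stood between 61.9% and 70.2% of their wildtype values.

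Other secreted factors of the stellate cell group were lower by amounts near or under their SE. Bmp5, a bone morphogenetic protein, was at 1.18 against 1.66 FPKM (-0.50 ± 0.40). Hgf, hepatocyte growth factor, was at 1.07 against 1.37 FPKM (-0.36 ± 0.41). Angptl6, an angiopoietin-like protein, was at 7.51 against 8.81 FPKM (-0.23 ± 0.46). The labels do not say whether strand was kept. Angptl6, Gpr182 and Eng share exon bases with protein-coding genes on the other strand (A230050P20Rik, Zbtb39 and Fpgs), and 9 further members, among them Reln and Clec4g, with noncoding genes there, so reads of the partners may be counted in their values.

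The receptors and filament genes of stellate cells and pericytes lay nearer to their wildtype values. Pdgfrb and Pdgfra, the receptors of platelet-derived growth factor, were at 1.36 against 1.40 FPKM (-0.036 ± 0.31) and 0.590 against 0.618 FPKM (-0.066 ± 0.45). Rgs5, a G protein regulator of pericytes, was at 4.62 against 5.35 FPKM (-0.21 ± 0.32). Des, the filament protein desmin, was the 1 stellate gene above 0, at 2.42 against 2.28 FPKM (0.084 ± 0.35). Within this group the ratios therefore ran from -0.69 to 0.084, with Reln and Lrat at the low end and Pdgfrb, Pdgfra and Des near 0.

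**Figure D1:**
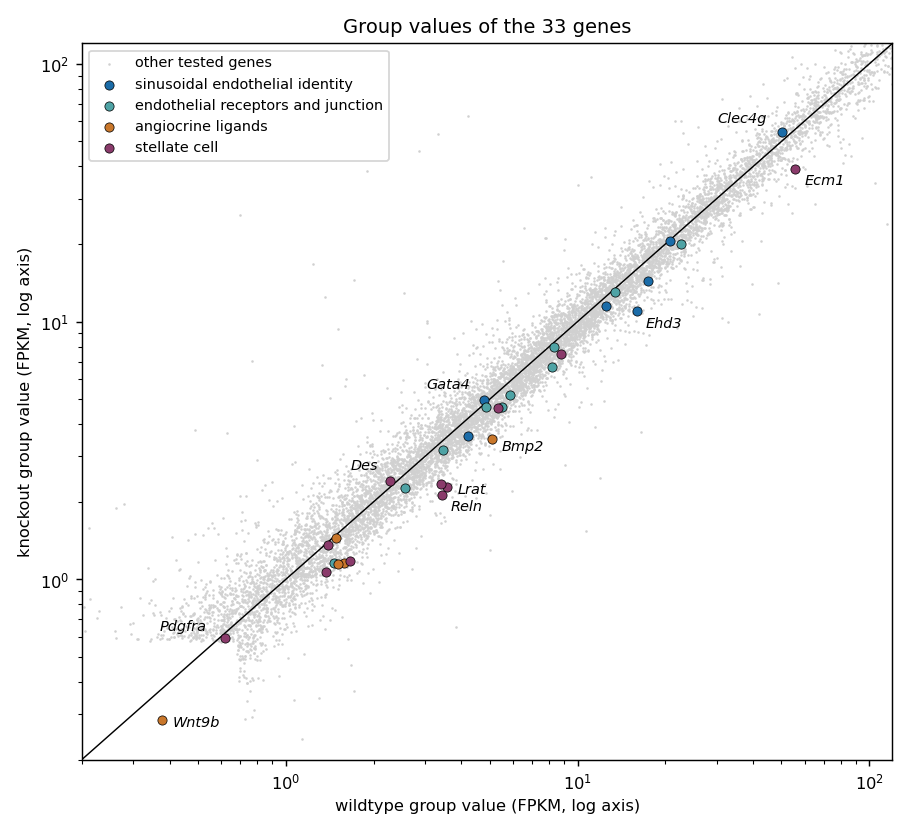
Group values in FPKM of the 33 genes, wildtype on the horizontal and knockout on the vertical log axis, coloured by role over all other tested genes in grey; the diagonal marks equal values. Most points lie just below the diagonal, and Clec4g, Gata4 and Des lie just above it.

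The endothelial genes lay closer to wildtype than the stellate genes. Of the 21 tested, 19 ratios were below 0, with a median of -0.18. An unadjusted p was under 0.05 for 2 of the 21, each lower, against 2.47% of all tested genes on the lower side. The summed level of the 22 was 196.6 against 212.4 FPKM, or 92.6% of wildtype. Clec4g alone gave 54.4 and 50.3 FPKM of these sums, and without it the share was 87.8%. Whether the endothelial and stellate groups differ from each other was not tested.

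Genes of sinusoidal endothelial identity were split. Clec4g, a C-type lectin with the highest mean level of the 33 genes, was at 54.4 against 50.3 FPKM (0.11 ± 0.23). Gata4, a transcription factor needed for the sinusoidal state of this endothelium, was at 4.98 against 4.78 FPKM (0.059 ± 0.26). Fcgr2b, an inhibitory Fc receptor that clears immune complexes, was at 20.5 against 20.8 FPKM (-0.019 ± 0.24). These 3 genes stood at 98.7% to 108.1% of wildtype, and their 95% intervals lay within -0.49 and 0.57.

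Ehd3, a membrane trafficking ATPase, was the endothelial gene with the smallest p. It was at 11.0 against 15.96 FPKM, or 68.7% of wildtype (-0.54 ± 0.23, with p = 0.0179 and q = 0.571 by the authors' deposited table), with a 95% interval from -0.99 to -0.093. Gpr182, an atypical chemokine receptor, was at 14.3 against 17.4 FPKM (-0.28 ± 0.24). Lyve1, the hyaluronan receptor, was at 3.60 against 4.22 FPKM (-0.23 ± 0.30), and Oit3, a secreted protein of this endothelium, at 11.5 against 12.5 FPKM (-0.12 ± 0.24). Ehd3 and Clec4g, both markers of sinusoidal endothelium, thus stood at 68.7% and 108.1% of wildtype in the same livers.

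All 10 receptors and junction genes had ratios below 0 and none had a p under 0.05, with a median of -0.18. The VEGF receptors Flt1 and Kdr were lowest, at 1.16 against 1.46 FPKM (-0.33 ± 0.31) and 6.69 against 8.15 FPKM (-0.29 ± 0.23). Flt4, the VEGF-C receptor, was at 4.66 against 4.87 FPKM (-0.064 ± 0.24), and Nrp1, a VEGF and semaphorin co-receptor, at 13.0 against 13.5 FPKM (-0.048 ± 0.23). The 2 VEGF receptors of blood vessels stood at 79.6% and 81.99% of wildtype, and Flt4 and Nrp1 at 95.7% and 96.7%.

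Genes of the angiopoietin receptor system stood between 84.7% and 88.4% of wildtype. Tek, the receptor Tie2, was at 2.26 against 2.56 FPKM (-0.18 ± 0.29), its partner Tie1 at 5.17 against 5.85 FPKM (-0.18 ± 0.25), and Ptprb, the phosphatase that restrains Tie2, at 4.68 against 5.52 FPKM (-0.24 ± 0.23). Cdh5, the cadherin of endothelial junctions, was at 8.01 against 8.31 FPKM (-0.054 ± 0.23). Robo4, an endothelial roundabout receptor, was at 3.19 against 3.47 FPKM (-0.12 ± 0.27). Eng, the TGF-beta and BMP co-receptor endoglin, was at 19.9 against 22.6 FPKM (-0.18 ± 0.37).

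The angiocrine ligands were the least abundant endothelial group. Bmp2, which in liver endothelium drives hepcidin in hepatocytes, was at 3.52 against 5.11 FPKM, or 68.9% of wildtype (-0.54 ± 0.27, with p = 0.0449 and q = 0.896 by the authors' deposited table). Wnt2 was at 1.16 against 1.58 FPKM (-0.45 ± 0.42), and Rspo3, which strengthens Wnt signals, at 1.15 against 1.52 FPKM (-0.40 ± 0.42). Wnt9b was not tested by the authors and was at 0.286 against 0.377 FPKM (-0.40 ± 0.51). Dll4, a Notch ligand, was at 1.45 against 1.49 FPKM (-0.040 ± 0.36). The 3 Wnt pathway ligands stood at 73.2% to 75.9% of wildtype, each with an SE about as large as the ratio.

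**Figure D2:**
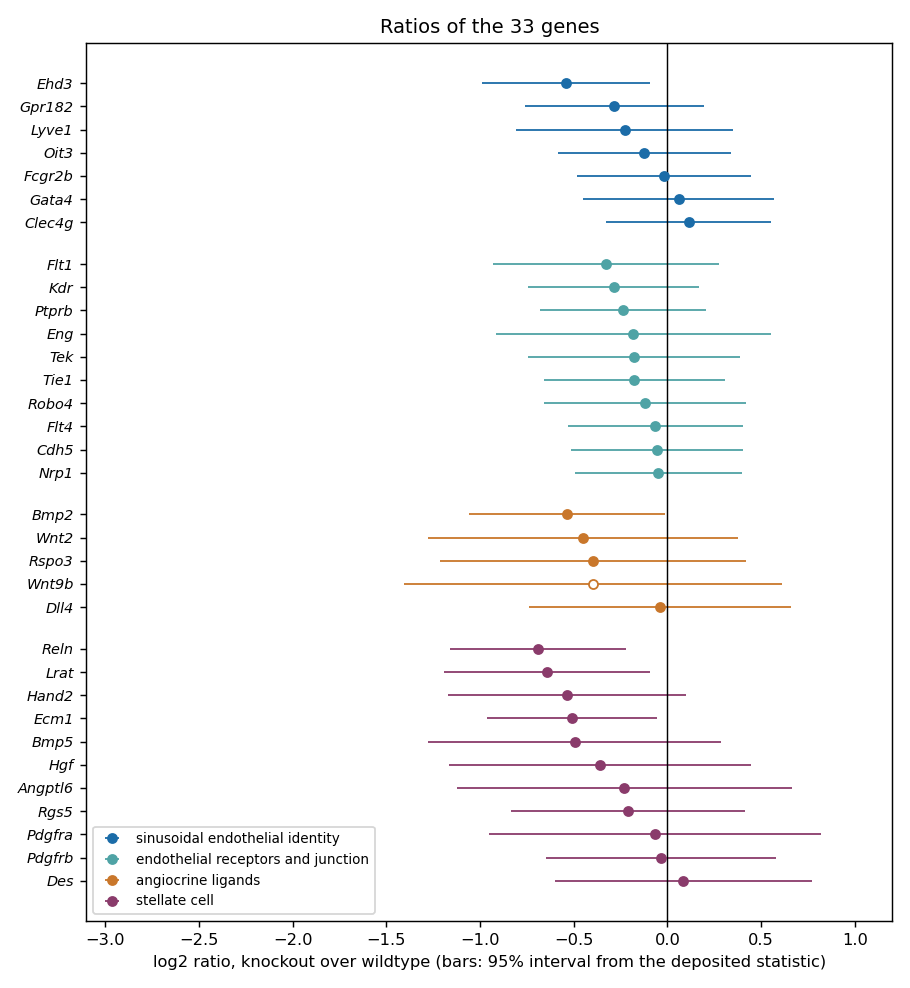
Log2 ratio of knockout over wildtype for each of the 33 genes, by role, with 95% intervals from the deposited statistic; the open point is Wnt9b, which was not tested. The intervals of Ehd3, Bmp2, Reln, Lrat and Ecm1 lie below 0, and 27 of the 32 intervals of tested genes include 0.

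The precision limits what these values can show. The SE of the 32 ratios ran from 0.23 to 0.46, with a median of 0.28, and the SD of the ratios among themselves was 0.22. The smallest absolute log2 ratio of any called gene in the table was 0.78, above the largest among the members. For 23 of the 32 genes the 95% interval lay within -1 and 1. For the other 9 (Wnt2, Rspo3, Bmp2, Lrat, Reln, Hgf, Angptl6, Bmp5 and Hand2) it reached below -1.

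Partners and targets of the ligands held no call except in the retinoid list. Bmp2 acts through receptors and SMAD proteins on Hamp, which encodes hepcidin. Of 21 genes of that pathway 19 were tested and 0 changed, with 11 ratios below 0, a median of -0.075 and 0 at an unadjusted p under 0.05. Hamp was at 1492 against 1316 FPKM (0.18 ± 0.30), and Smad7, an inhibitory SMAD with the smallest p of the list, at 3.003 against 4.11 FPKM (-0.45 ± 0.27). Bmp2 stood lower by 0.54 and Hamp higher by 0.18 on the log2 scale, and neither passed the test. Further genes of the list lay on both sides, with Id1 at -0.50 and Hamp2 at -0.11, and Id3 at 0.14 and Id2 at 0.11. None of these passed, and they were named after their values were seen.

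Hepatocytes around the central vein express Wnt target genes. All 15 such genes were tested and 0 changed, with 11 ratios below 0, a median of -0.15 and 1 unadjusted p under 0.05. The 11 periportal hepatocyte genes had 7 ratios below 0 and a median of -0.099, with 0 changed and 0 at an unadjusted p under 0.05. Gls2, a glutaminase, had the smallest p of these, at 144 against 183 FPKM (-0.35 ± 0.25). Axin2, a general Wnt target, was at 0.947 against 1.18 FPKM (-0.32 ± 0.36), and Glul, glutamine synthetase of the innermost pericentral cells, at 291 against 353 FPKM (-0.28 ± 0.27). Slc13a3, a dicarboxylate transporter, had the smallest p of the pericentral list and was higher, at 8.57 against 5.37 FPKM (0.67 ± 0.25, with q = 0.338 by the authors' deposited table).

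Wnt receptors and secretion genes held no call and lay on both sides of 0. Of 14 tested 0 changed, and 9 ratios were above 0 and 5 below as deposited. The median was 0.19, next to -0.0012 for all tested genes, and a scaling moves both by the same amount. Fzd8 and Fzd7, Frizzled receptors, had an unadjusted p under 0.05, at 8.33 against 5.10 FPKM (0.71 ± 0.27, with q = 0.367 by the authors' deposited table) and 5.97 against 3.91 FPKM (0.61 ± 0.25, q = 0.512 by that table). Fzd7 was named after its value was seen.

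Ligands of the endothelial and stellate receptors did not pass either, and in these 4 lists 0 genes had an unadjusted p under 0.05. In the VEGF and angiopoietin list 6 of 12 genes were tested, 0 changed, and the median was -0.056. Vegfa, the main VEGF of hepatocytes, was at 33.5 against 33.1 FPKM (0.014 ± 0.27), and Nrp2, with the smallest p, at 1.22 against 1.65 FPKM (-0.43 ± 0.41). The 4 PDGF ligands had a median of 0.31 with 0 changed, and Pdgfc, with the smallest p, was at 1.27 against 1.02 FPKM (0.32 ± 0.38). In the HGF list 0 of 10 tested genes changed (median 0.062), with the receptor Met at 9.82 against 10.9 FPKM (-0.15 ± 0.22) and Gab1, its adaptor, at 3.18 against 4.20 FPKM (-0.40 ± 0.26). In the Notch list 0 of 10 tested genes changed (median 0.053), with the target Hes1 at 5.62 against 3.89 FPKM (0.53 ± 0.34).

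Retinoid genes held the single call among the pathway lists. Cyp26a1, which degrades retinoic acid, fell from 11.5 FPKM in wildtype to 3.92 FPKM in knockout livers (-1.55 ± 0.30, with q = 5.04e-05 by the authors' deposited table). Of 12 listed genes 11 were tested, 1 fell and 0 rose, 6 ratios were below 0, and the median was -0.049. An unadjusted p was under 0.05 for 3 of the 11, each lower, against 2.47% of all tested genes on the lower side. Cyp26b1, a relative of Cyp26a1, and Rarb, a retinoic acid receptor, did not pass, at 0.696 against 1.42 FPKM (-1.03 ± 0.50, q = 0.847 by that table) and 1.06 against 1.91 FPKM (-0.85 ± 0.39, q = 0.750 by that table). These 2 were named after their values were seen, as were the genes of the 5 ratios above 0. Those genes were Dhrs3, Lpl, Rdh11, Rara and Rxra, with log2 ratios from 0.073 to 0.35, and none passed. Rbp4, the retinol carrier of blood, was at 3449 against 3828 FPKM (-0.15 ± 0.38).

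Other stellate cell and fibroblast genes lay mostly lower as well. Of 18 listed 17 were tested and 0 changed, with 14 ratios below 0 and a median of -0.22. The 1 gene with an unadjusted p under 0.05 was higher in the knockout group. That list lay nearer 0 than the 11 stellate cell members, whose median was -0.36. Its summed level was 178.8 against 180.1 FPKM, so the sum did not show the difference that the median did. Steap4, a metalloreductase at 51.7 against 42.3 FPKM (0.29 ± 0.23), and Dcn, the matrix protein decorin at 35.5 against 41.8 FPKM (-0.24 ± 0.24), were its most abundant genes and were named after their values were seen.

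Genes of myofibroblast activation held no call. Of 12 tested 0 were called, 8 ratios were below 0, and the median was -0.084. Ctgf, a matricellular protein, had the smallest p and the single one under 0.05, at 3.56 against 5.43 FPKM (-0.61 ± 0.30, with q = 0.853 by the authors' deposited table). Acta2, smooth muscle actin, was at 1.47 against 1.91 FPKM (-0.38 ± 0.38), and Col1a1, a collagen chain, at 4.72 against 4.93 FPKM (-0.062 ± 0.25). The 2 were named as the usual markers of that state. The 4 ratios above 0 were those of Tagln, Tgfb1, Col3a1 and Fn1, from 0.083 to 0.29. The summed level of the list, most of it Fn1, was 239.9 against 233.7 FPKM.

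Other endothelial genes gave ratios nearer 0. Of 26 further genes 24 were tested and 0 changed, with 16 ratios below 0, a median of -0.12 and 0 at an unadjusted p under 0.05. Stab2, a scavenger receptor of sinusoidal endothelium, had the smallest p, at 5.82 against 7.18 FPKM (-0.30 ± 0.22). Pecam1, a marker of all endothelium, was at 6.33 against 6.01 FPKM (0.075 ± 0.31).

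**Figure D3:**
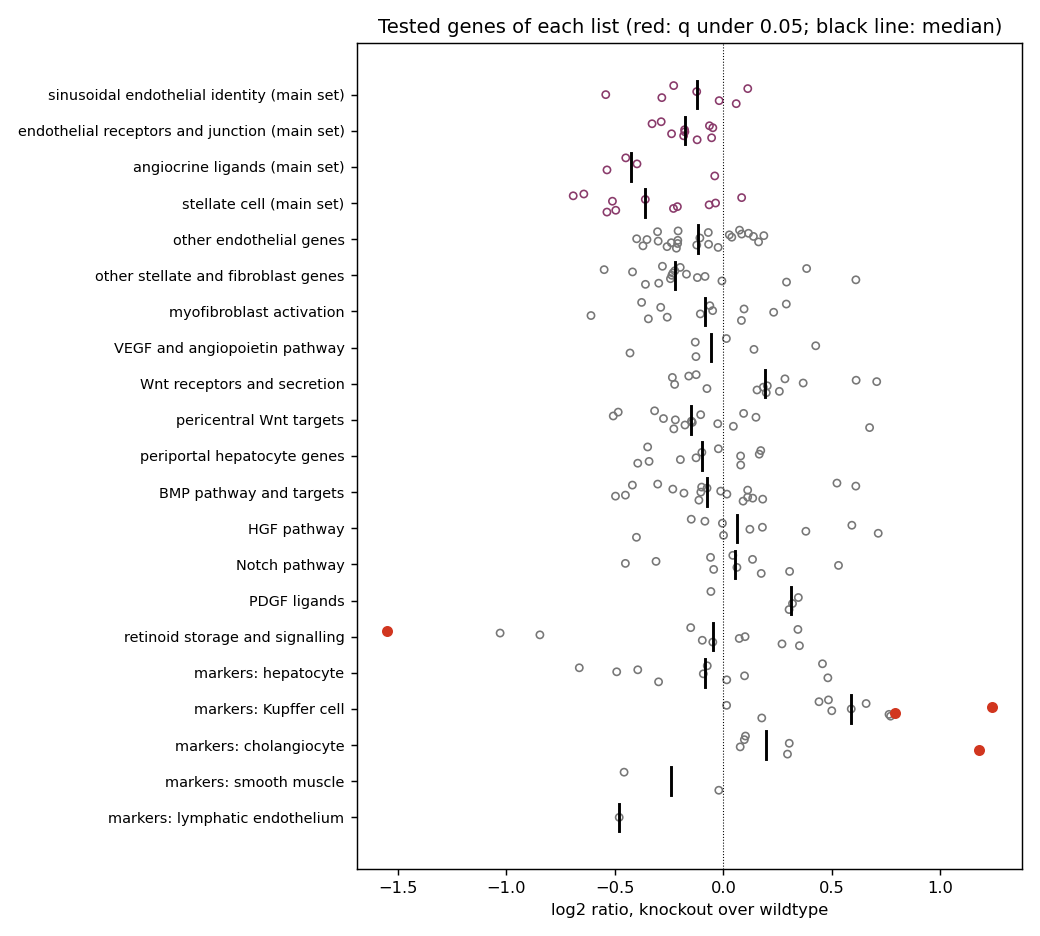
Log2 ratio of knockout over wildtype for every tested gene of each list except neutrophil markers, which lie off the scale (median 4.19). Of those markers Ltf, Mpo, Camp, Elane and Ngp were at 0.0928 FPKM or less in wildtype, so the size of that median is uncertain. Red points have q under 0.05 and black lines are medians. The 4 groups described here have medians from -0.42 to -0.12, and Kupffer cell markers have a median of 0.59.

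Markers of Kupffer cells and neutrophils lay above 0 as deposited. All 11 Kupffer cell markers had ratios above 0 before any rescaling (median 0.59), and their summed level was 526 against 333 FPKM. An unadjusted p was under 0.05 for 8 of the 11, against 5.29% of all tested genes in either direction. Marco, a scavenger receptor, and C1qa, a complement component, rose from 2.52 to 5.96 FPKM and from 55.7 to 96.4 FPKM, with q of 0.0169 and 0.0484 in the authors' deposited table. C1qa did not pass after scaling to equal sums (q = 0.253) or to equal sums without acute phase genes (q = 0.117), and Marco did not pass after the former (q = 0.0717). Of 9 tested neutrophil markers 4 rose, and 8 had an unadjusted p under 0.05. The summed level of that list was 109 against 6.28 FPKM. Among those that rose were S100a9 from 2.86 to 46.0 FPKM, S100a8 from 1.89 to 38.4 FPKM and Ngp from 0.0928 to 8.72 FPKM. After scaling to equal sums, S100a9, S100a8 and Ngp still passed (q = 2.86e-11, 1.57e-06 and 0.000132). Fcgr2b and Lyve1 are also expressed by macrophages. The part of these cells in the ratios of the members was not tested.

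Osteopontin (Spp1) was the 1 called gene of 6 tested cholangiocyte markers, at 142 against 62.6 FPKM, with q of 0.000521 in the authors' deposited table and a list median of 0.20. Spp1 still passed after scaling to equal sums (q = 0.00824). The 10 hepatocyte markers had a median of -0.083 with 0 changed and 0 at an unadjusted p under 0.05, led by Apoa1 at 16007 against 11662 FPKM, and Tat had the smallest p, at 769 against 1219 FPKM. Lymphatic endothelium was hardly represented: Ccl21a is listed at 0 in both groups, and Mmrn1 and Pdpn were at 0.143 and 0.235 FPKM or less. Prox1, which hepatocytes also express, was at 7.77 against 10.8 FPKM (-0.48 ± 0.24). Smooth muscle was near the floor as well, with Myh11 at 0.507 against 0.696 FPKM and Smtn, the highest of that list, at 2.59 against 2.63 FPKM.

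The size of the ratios depended on how the groups were scaled. The listed values summed to 646306 FPKM in the knockout and 564749 FPKM in the wildtype group, with Alb and Apoe listed at 0. Scaling the groups to equal sums lowered every ratio by 0.19 and the median of all tested genes to -0.20. Reln then passed as lower (log2 ratio -0.89, q = 0.0174), where 1.22% of all tested genes were called lower. At an unadjusted p under 0.05, 8 of the 32 tested members were then lower, against 7.56% of all tested genes. Since a scaling adds the same amount to every log2 ratio, the gap of 0.22 between the median of the members and that of all tested genes is the same under each by construction.

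Leaving 12 acute phase genes out of the sums, among them Saa1 and Saa2, moved the ratios by -0.081 only. No member passed then, against 0.729% of all tested genes called lower. The unadjusted p was under 0.05 on the lower side for 5 of the 32 tested members, against 3.75% of all tested genes. Clec4g, Gata4 and Des were above 0 as deposited and below 0 with equal sums, and Gata4 was also below 0 without the acute phase genes. These turns follow from the common shift: with equal sums the 3 ratios were -0.082, -0.14 and -0.11, still above the median of -0.20 of all tested genes.

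**Figure D4:**
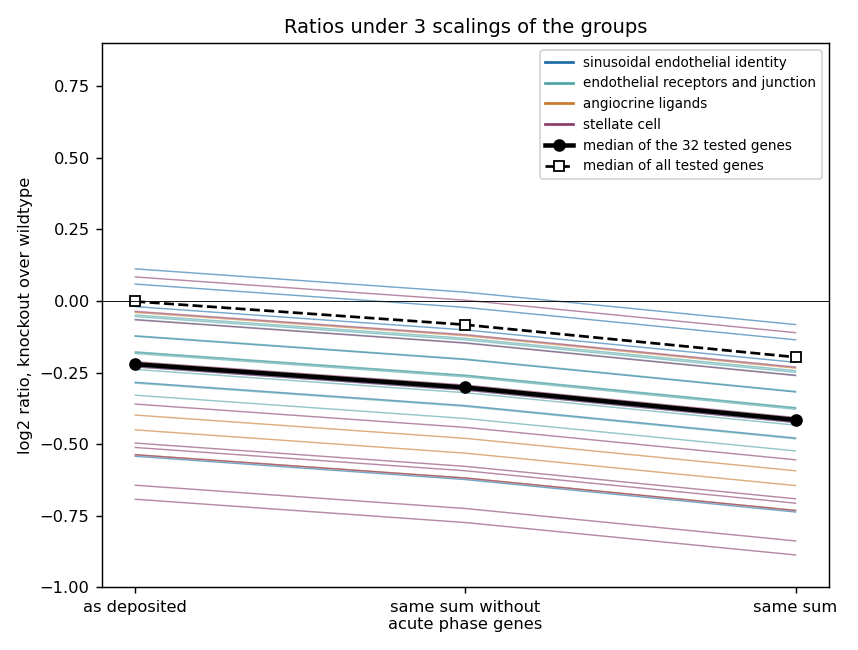
Log2 ratios of the 32 tested genes (thin lines, by role), their median (thick line) and the median of all tested genes (dashed line), as deposited and under 2 other scalings. All lines drop together, from a median of -0.22 to -0.41 for the 32 genes and from -0.0012 to -0.20 for all tested genes.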

How the data were processed

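Liver RNA from 3 knockout and 3 wildtype mice was sequenced as single-end reads. Bowtie2 and build mm10 appear in the submitters' processing notes with no role or version; how expression was computed is not stated there. The authors deposited 1 value per group, which was read as FPKM because the columns are those of a Cuffdiff table. The headers name no unit, and how the 3 samples of a group were combined is not stated. The deposited statistic, a score, behaved as a standard normal z (p matched to within 2.63e-06), and each deposited q-value matched a Benjamini-Hochberg adjustment over the 11515 tested genes to within 1.99e-06. Per the file headers the deposited log2 ratio sets wildtype over knockout; its sign was reversed. It matched the log2 of the values to within 1.29e-05 for tested genes. A short list of 95 differential genes, all of them among the 124 called in the full table, holds 0 of the members.

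The limma test planned for values per library was replaced by the authors' own test, since only group values were used. The SE is the log2 ratio divided by the statistic; intervals are 95% (1.96 SE). They carry the error of the authors' model, and depth per library is unknown. Genes at 0 in 1 group (59 tested) have no ratio. Under other scalings, ratios were shifted, and p and q recomputed with the same SE; this code was tested on simulated data. Python 3.11.15, pandas 2.3.3 and SciPy 1.17.1 were used. Gene overlaps come from GENCODE M21 (GRCm38, the assembly of mm10) and promoters from RefSeq.

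The members and the 18 other lists were chosen with earlier results of these data known. Every member is named; of each other list, up to 3 called genes with the smallest p or else its gene with the smallest p (for the other stellate cell genes it is not reported here), and the most abundant gene of each marker list. Axin2, Glul, Hamp, Vegfa, Met, Rbp4, Pecam1, Ccl21a, Mmrn1 and Pdpn were added for their roles after values were seen. Alternatives were q under 0.1, unadjusted p, 3 scalings, a minimum of 1 FPKM, and pseudocounts of 1 and 0.1.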

Additional observations from a re-analysis of the deposited data

How the results depend on the processing

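The count of members called was 0 with q under 0.05, with q under 0.1, with genes of at least 1 FPKM only, with tested genes centred on a median of 0, and after scaling to equal sums without acute phase genes. Over all tested genes, 1.08% were called in either direction with q under 0.05, 1.09% after centring and 1.22% without acute phase genes. With at least 1 FPKM 124 of 10436 genes were called, and the share at q under 0.1 was not computed. The count of members was 1 (Reln) with equal sums over all genes, against 1.22% of all tested genes called lower. At an unadjusted p under 0.05 it was 5, each lower, against 2.47% of all tested genes on the lower side. The median log2 ratio of the members was -0.22 as deposited, -0.41 with the same sum, and between -0.30 and -0.18 under the remaining alternatives. With the same sum the ratios of Clec4g, Gata4 and Des turned to -0.082, -0.14 and -0.11, and without acute phase genes that of Gata4 turned to -0.022; these follow from the shift common to all genes. The other 28 tested members kept direction and side of the threshold with the same sum. With pseudocounts of 1 and 0.1 all 33 kept their direction. Scaling to the same sum also moved the calls over all genes from 66 higher and 58 lower to 49 higher and 140 lower, and without acute phase genes to 57 and 84.

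Leaving out a mouse was not possible, because the values are per group. No paired analysis was possible because the groups share no animal number and the table holds no value per mouse.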
